A study of Mus musculus with 6 samples.

Results

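The IL-6 and oncostatin M family, taken here as 10 of the 52550 genes in the deposited count table, was followed in macrophages that lacked or carried macrophage scavenger receptor 1 (MSR1). The members were named by gene symbol, with earlier results of these data known. They are the cytokines Il6, Osm, Lif, Il11 and Clcf1, the receptor chains Il6ra, Il6st, Osmr and Lifr, and the feedback inhibitor Socs3. The comparison was of 3 libraries of MSR1 KO macrophages with 3 libraries of MSR1 WT macrophages, all from C57BL/6 mice. In both groups, bone marrow cells were grown for 7 days in M-CSF, the growth factor that drives macrophage differentiation, at 25 ng/ml and then shared medium with bone marrow stem cells (BMSCs) across a transwell for 48 h, so no macrophages without BMSCs are included. The knockout is present in every cell of the animal. The paper calls the samples biological replicates, but neither it nor the labels say whether the libraries of a group came from separate animals. The p-values thus measure the spread between these libraries.

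Cytokines of this family signal through gp130, the shared receptor chain encoded by Il6st. IL-6 binds its own receptor chain first, whereas oncostatin M and LIF bring gp130 together with the chains encoded by Osmr and Lifr. The receptor-bound JAK kinases then activate STAT transcription factors, chiefly STAT3, which induce Socs3, and the SOCS3 protein in turn shuts gp130 signaling down. Oncostatin M made by macrophages is a known osteogenic signal for bone marrow stromal cells, which carry the OSMR chain on their surface.

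Promoter sequences bear on this family because Socs3 is a textbook STAT target and because Osmr and Lifr are neighbouring receptor genes, 254.6 kb apart, of which one had groups that did not overlap and the other did. RefSeq promoters on GRCm38.p6, each 300 bases long from 250 bases before to 50 bases after a RefSeq transcript start, were held for 8 of the 10 members, and Osm and Clcf1 were not matched. The STAT palindrome TTCNNNGAA and the AP-1 motif TGANTCA, which each read the same on both strands, were searched. Capitals in the sequences mark the matches. The RefSeq starts of Socs3 and Osmr lie 681 and 656 bases inside the gene boundaries of the count table, which are the positions printed for these genes in the results, and that of Lifr lies 13 bases inside. The Socs3 window (chr11:117969317-117969616, minus strand) held a STAT palindrome beginning 154 bases before the RefSeq start, as do 8.3% of 32851 RefSeq promoter windows of that length. The Osmr window (chr15:6874264-6874563, minus strand) held an AP-1 match that begins at base 4 of the transcript, a motif found in 7.81% of the windows. The Lifr window nearest the start given in the table (chr15:7129322-7129621, plus strand) held neither motif. AP-1 matches also lay 249 bases before the start of Il6, 228 bases before that of Lif and 98 bases before an alternative start of Il11. These matches describe letters only and are not mapped binding sites. A link between them and the differences between groups was not tested.
Socs3: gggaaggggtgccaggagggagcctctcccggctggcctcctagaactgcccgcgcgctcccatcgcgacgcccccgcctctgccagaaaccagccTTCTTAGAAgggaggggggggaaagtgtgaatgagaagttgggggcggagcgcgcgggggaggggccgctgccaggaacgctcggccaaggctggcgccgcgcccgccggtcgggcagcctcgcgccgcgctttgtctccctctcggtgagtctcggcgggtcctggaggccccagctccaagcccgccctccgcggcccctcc
Osmr: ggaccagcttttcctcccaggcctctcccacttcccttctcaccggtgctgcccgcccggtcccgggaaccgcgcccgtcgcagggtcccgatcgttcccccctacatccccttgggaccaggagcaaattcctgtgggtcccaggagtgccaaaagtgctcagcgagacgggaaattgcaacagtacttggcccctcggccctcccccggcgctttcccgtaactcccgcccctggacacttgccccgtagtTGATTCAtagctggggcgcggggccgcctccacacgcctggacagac
Lifr: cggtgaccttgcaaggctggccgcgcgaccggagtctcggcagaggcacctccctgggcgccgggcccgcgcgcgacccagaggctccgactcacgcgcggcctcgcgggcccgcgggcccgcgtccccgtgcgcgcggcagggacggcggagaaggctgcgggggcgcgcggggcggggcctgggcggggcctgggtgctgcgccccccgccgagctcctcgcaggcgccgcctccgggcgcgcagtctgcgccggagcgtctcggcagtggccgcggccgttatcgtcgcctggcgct

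The libraries held 36143518 to 47417448 counts each. Msr1, the targeted gene, had 2118, 1825 and 2000 reads in MSR1 KO replicates 1 to 3, and 7543, 9163 and 9219 in MSR1 WT replicates 1 to 3, and fell by 2.02 on the log2 scale (adjusted p = 0.0012 by edgeR), so the targeted gene goes with the labels although reads on it remained. Macrophage transcripts were abundant in both groups, with 24000 to 25200 CPM (the count scaled to 1e6 reads of the library) over 9 macrophage markers in MSR1 KO libraries and 24600 to 27500 CPM in MSR1 WT libraries. Of 9 macrophage markers 1 rose (Fcgr1) and 1 fell (Mrc1) in edgeR. Of 6 B cell markers, 5 were under 1 CPM in every library, and nearly all of the sum (19.1 to 22.9 CPM in MSR1 KO and 15.4 to 20.2 CPM in MSR1 WT) was Cd79b. The sum of 8 T and NK cell markers (106 to 153 and 93 to 147 CPM) was mostly Cd4, with Cd3d, Cd3e, Cd3g and Cd8a under 1 CPM in every library, while Klrb1c rose by 1.39 on the log2 scale (adjusted p = 0.028 by edgeR). The sum of 6 dendritic cell markers (18.2 to 28 and 79 to 147 CPM) was nearly all Itgax, which fell by 2.50 (adjusted p = 0.0045 by edgeR), whereas Xcr1 at 2.04 and Clec9a at 1.80 had log2 fold changes of the other sign and did not pass. The sum of 5 endothelial markers was 107 to 131 CPM in MSR1 KO and 66.2 to 103 CPM in MSR1 WT libraries. Each of these markers had a higher mean in MSR1 KO libraries, and Pecam1 rose by 0.72 on the log2 scale (adjusted p = 0.027 by edgeR). No marker in any list was at 0 in every library. Differences between groups were tested on 16402 genes by edgeR's quasi-likelihood test with Benjamini-Hochberg adjustment, and a gene is said to have risen or fallen only where the adjusted p was under 0.05.

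Of the 10 members, 8 had enough reads to be tested and 0 passed at an adjusted p under 0.05, against 4.91% of all tested genes. At an unadjusted p under 0.05 there were 4 in edgeR, against 18.9% of all tested genes. Of these, Osm and Il6ra were higher in MSR1 KO macrophages, against 8.65% of all tested genes in that direction, and Osmr and Clcf1 were lower, against 10.2%. DESeq2 also gave 4 at an unadjusted p under 0.05, and 2 (Osmr and Clcf1) at an adjusted p under 0.05, against 9.56% of all tested genes. The study's own definition of a differentially expressed gene asks for a fold of more than 1.5 with p under 0.05, not adjusted. Osmr and Clcf1 met it, both lower in MSR1 KO macrophages, against 5.05% of all tested genes in that direction and 8.64% in either, and 0 members met it as higher, against 3.59%. The 3 MSR1 KO values lay apart from the 3 MSR1 WT values for 4 members, above for Osm and Il6ra and below for Osmr and Clcf1, against 25.5% of all tested genes. The median log2 fold change of the 8 tested members was -0.01.

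**Figure D1:**
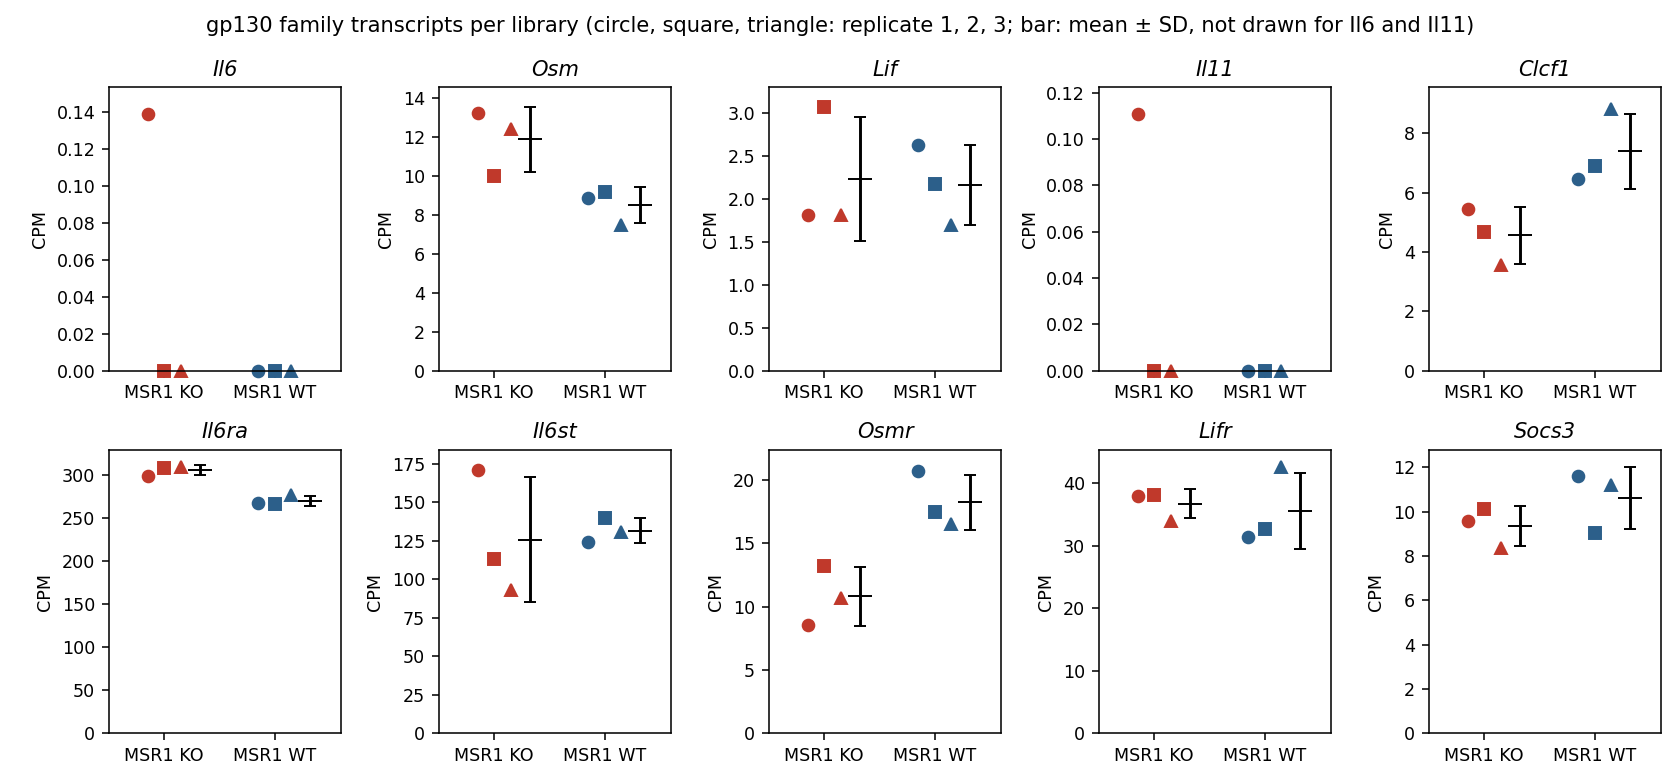
CPM of the 10 members in each library, with MSR1 KO in red, MSR1 WT in blue, marker shapes for the replicate number, and bars for the mean ± SD of 3 libraries, not drawn for Il6 and Il11. The groups are apart for Osm, Clcf1, Il6ra and Osmr, overlap for Lif, Il6st, Lifr and Socs3, and Il6 and Il11 are above 0 in MSR1 KO replicate 1 alone.

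Among the ligands that are members, the highest level per kilobase was that of Osm, the gene of oncostatin M (ENSMUSG00000058755.3, chromosome 11 from 4236420 to 4241026). It gave 476, 398 and 575 reads in MSR1 KO replicates 1 to 3, and 366, 436 and 308 in MSR1 WT replicates 1 to 3, or 13.2, 9.99 and 12.4 CPM against 8.87, 9.18 and 7.45 CPM. Every MSR1 KO library was thus above every MSR1 WT library, though the lowest MSR1 KO value and the highest MSR1 WT value were close. The log2 fold change was 0.48 (95% interval 0.13 to 0.83, unadjusted p = 0.014, adjusted p = 0.13 by edgeR), which did not pass. Without MSR1 KO replicate 2 it was 0.59 and met the study's definition, with an adjusted p of 0.095 in edgeR. All 10 neutrophil markers had a higher mean in MSR1 KO libraries, with a median log2 fold change of 0.42 and 0 passing in edgeR. Their summed level was 1080, 731 and 664 CPM in MSR1 KO and 819, 671 and 431 CPM in MSR1 WT replicates 1 to 3. These groups overlapped, with MSR1 KO replicate 1 highest and MSR1 WT replicate 3 lowest, as for Osm. The part of neutrophil transcripts in the level of Osm was not tested.

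Clcf1 encodes cardiotrophin-like cytokine factor 1, a ligand of the receptor that joins gp130 and LIFR with the CNTF receptor (ENSMUSG00000040663.8, chromosome 19 from 4214238 to 4223490). It had 196, 186 and 165 reads in MSR1 KO replicates 1 to 3, and 266, 328 and 365 in MSR1 WT replicates 1 to 3, which is 5.45, 4.67 and 3.55 CPM against 6.45, 6.91 and 8.83 CPM. The groups did not overlap, and the mean was 4.56 ± 0.958 CPM (SD, n = 3) in MSR1 KO against 7.4 ± 1.26 CPM (SD, n = 3) in MSR1 WT libraries. Its log2 fold change was -0.70 (95% interval -1.18 to -0.22, adjusted p = 0.11 by edgeR and adjusted p = 0.035 by DESeq2). Leaving out replicate 3 of MSR1 KO (-0.54) or of MSR1 WT (-0.55) ended its place in the study's definition. Of its exon bases, 8.17% also belong to another annotated gene on its strand, AC109138.7.

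Lif, the leukemia inhibitory factor gene (ENSMUSG00000034394.14, chromosome 11 from 4257557 to 4272514), lies 16.5 kb from Osm on the same strand with 0 protein-coding genes between them. It gave 65, 122 and 84 reads in MSR1 KO replicates 1 to 3, and 108, 103 and 70 in MSR1 WT replicates 1 to 3. These values interleave, and the log2 fold change of 0.04 had a 95% interval from -0.65 to 0.74, so ratios from 0.637 to 1.67 were within its error. Its sign turned without MSR1 KO replicate 2 (-0.26). The neighbours Osm and Lif thus differed in whether the groups overlapped, and the difference between their fold changes was not tested.

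Il6 (ENSMUSG00000025746.11, chromosome 5 from 30013114 to 30019981) and Il11 (ENSMUSG00000004371.14, chromosome 7 from 4772373 to 4782857) encode the cytokines IL-6 and IL-11. Il6 had 5 counts and Il11 had 4 counts in MSR1 KO replicate 1, and each had 0 in the other 5 libraries. In that library the Il6 count is 0.138 CPM by total counts, with an exact 95% Poisson interval from 0.0449 to 0.323, and the Il11 count is 0.111 CPM with an interval from 0.0302 to 0.283. Where no read was counted, as many as 3 remain possible by a one-sided bound, or 0.0633 to 0.0747 CPM in those 5 libraries. The upper limit of the two-sided interval is 0.0778 to 0.0919 CPM there. By either limit, the interval of each gene reaches below what the empty libraries allow. Such intervals cover counting error only. Neither gene could enter the test, and among all genes with any count each had an adjusted p of 0.52 in edgeR. A difference in either cytokine was not detectable at this depth. The same library had the highest summed level of 10 neutrophil markers (1080 CPM, against 664 and 731 in the other MSR1 KO libraries and 431 to 819 in the MSR1 WT libraries), and the part of that in these reads was not tested.

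Among the receptor chains, Osmr, the oncostatin M receptor gene (ENSMUSG00000022146.12, chromosome 15 from 6813577 to 6874969), differed most. It had 306, 527 and 496 reads in MSR1 KO replicates 1 to 3, and 853, 833 and 680 in MSR1 WT replicates 1 to 3. After scaling these were 8.52, 13.2 and 10.7 CPM against 20.7, 17.5 and 16.5 CPM, with no overlap. The log2 fold change was -0.75 (standard error 0.175, 95% interval -1.16 to -0.35), a level 0.593 times that of MSR1 WT macrophages. Its unadjusted p was 0.0025 and its adjusted p = 0.0502 by edgeR, just above 0.05, while DESeq2 gave an adjusted p of 0.0019. Over all the alternatives its edgeR adjusted p ran up to 0.175 without MSR1 WT replicate 1, and it passed with library size alone (adjusted p = 0.0424), with at least 10 counts in every library (adjusted p = 0.044) and without MSR1 KO replicate 2 (adjusted p = 0.0398).

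Several stromal cell transcripts were lower in MSR1 KO libraries, as Osmr and Clcf1 were. Of 15 stromal markers, none of which was at 0 in every library, 5 fell and 0 rose at an adjusted p under 0.05 in edgeR, with a median log2 fold change of -0.39 against -0.002 over all tested genes. Among the 5 were Pdgfra (-1.19) and Pdgfrb (-0.87), which encode platelet-derived growth factor receptors of mesenchymal cells, and Cxcl12 (-1.11), a stromal chemokine. The others were Acta2 (-0.68) and Tagln (-0.64). Of the Tagln exon bases, 67.86% also lie in exons of Gm48529 and Pcsk7 on the opposite strand, so its value is uncertain. Of the other sign were Thy1, at 1.31 and with groups apart (adjusted p = 0.091 by edgeR and adjusted p = 0.0050 by DESeq2), and Nt5e and Lum, both at 0.46 with overlap. Runx2, at 0.02 with overlap, also had that sign. The count of 5 went to 0 without MSR1 KO replicate 1 or without replicate 1 of MSR1 WT, to 1 without MSR1 KO replicate 3, and to between 4 and 6 in the other 3 fits that left out 1 library. The summed level of the 15 markers was 1810, 2320 and 1860 CPM for MSR1 KO and 3230, 2520 and 2810 CPM for MSR1 WT. MSR1 KO replicate 1 had the lowest value and MSR1 WT replicate 1 the highest, as for Osmr, whereas for Clcf1 the lowest was MSR1 KO replicate 3 and the highest MSR1 WT replicate 3. The part of stromal transcripts in the levels of Osmr and Clcf1 was not tested, and in bulk RNA fewer cells of a type and less RNA per cell cannot be told apart.

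Lifr encodes the LIF receptor chain and is the next protein-coding gene to Osmr on chromosome 15 (ENSMUSG00000054263.11, from 7129559 to 7197489). It gave 1366, 1516 and 1580 reads in MSR1 KO replicates 1 to 3, and 1294, 1547 and 1757 in MSR1 WT replicates 1 to 3, or 38, 38.1 and 34 CPM against 31.4, 32.6 and 42.5 CPM. The groups overlapped, and the log2 fold change of 0.05 had a 95% interval from -0.24 to 0.34. That interval does not meet that of Osmr, and the difference between both genes was tested through their ratio.

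The ratio of Osmr to Lifr counts within a library needs no scaling. It was 0.224, 0.348 and 0.314 for MSR1 KO and 0.659, 0.538 and 0.387 for MSR1 WT. Every MSR1 KO library was below every MSR1 WT library, with a mean difference of -0.83 on the log2 scale. The exact two-sided permutation test gave p = 0.1, which is as low as a design of 3 against 3 can reach, and an adjusted p of 0.133 over the 4 ratios computed. The ratio of Osm to Osmr, ligand over receptor chain, was 1.56, 0.755 and 1.16 for MSR1 KO and 0.429, 0.523 and 0.453 for MSR1 WT. The mean difference was 1.25 on the log2 scale. Since the MSR1 KO libraries were all higher for Osm and all lower for Osmr, this ratio had to separate the groups. Its exact permutation p of 0.1 was therefore fixed and adds nothing to the levels of both genes. Osmr over Il6st also did not overlap (4.97%, 11.7% and 11.5% against 16.7%, 12.6% and 12.6%), though MSR1 KO replicates 2 and 3 lay near the MSR1 WT libraries. Il6ra over Il6st overlapped between the groups (exact permutation p = 0.4). The ratios were chosen after the data had been seen.

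**Figure D2:**
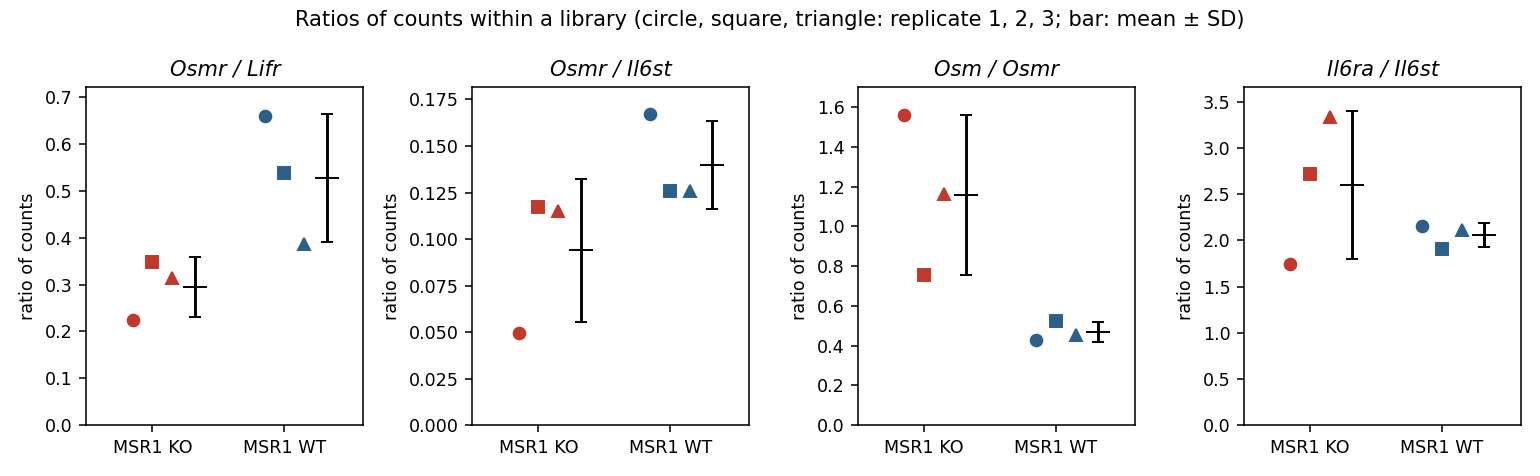
Ratio of the raw counts of a pair of members within each library, with MSR1 KO in red, MSR1 WT in blue, marker shapes for the replicate number and bars for the mean ± SD of 3 libraries. The Osm to Osmr ratio is 0.755 or more in the MSR1 KO libraries and 0.523 or less in the MSR1 WT libraries, whereas the Il6ra to Il6st ratio overlaps.

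Il6ra, which encodes the chain that binds IL-6 (ENSMUSG00000027947.11, chromosome 3 from 89864059 to 89913196), had 10735, 12287 and 14383 reads in MSR1 KO replicates 1 to 3, and 11026, 12648 and 11401 in MSR1 WT replicates 1 to 3. At 299, 308 and 309 CPM against 267, 266 and 276 CPM it had a tight spread within each group and no overlap. The difference was small, with a log2 fold change of 0.18 (95% interval 0.04 to 0.32, adjusted p = 0.14 by edgeR), a ratio of 1.13. Il6st, the gp130 gene (ENSMUSG00000021756.12, chromosome 13 from 112464070 to 112510086), had 6154, 4510 and 4325 counts against 5114, 6637 and 5412. MSR1 KO replicate 1 was the highest of all libraries at 171 CPM, whereas MSR1 KO replicates 2 and 3, at 113 and 93 CPM, were below the 124 to 140 CPM of the MSR1 WT libraries. The log2 fold change was -0.06 (95% interval -0.52 to 0.39) and turned on that library and on MSR1 KO replicate 3, since without it the value was -0.34 with an adjusted p of 0.19 in edgeR, and without MSR1 KO replicate 3 it was 0.12.

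Socs3, the suppressor of cytokine signaling whose promoter holds the STAT palindrome (ENSMUSG00000053113.3, chromosome 11 from 117966079 to 117970047), had 344, 401 and 389 reads in MSR1 KO replicates 1 to 3, and 479, 428 and 463 in MSR1 WT replicates 1 to 3. In CPM these were 9.57, 10.1 and 8.37 against 11.6, 9.02 and 11.2, with overlap through MSR1 WT replicate 2. The log2 fold change was -0.18 (95% interval -0.52 to 0.16, adjusted p = 0.57 by edgeR).

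**Figure D3:**
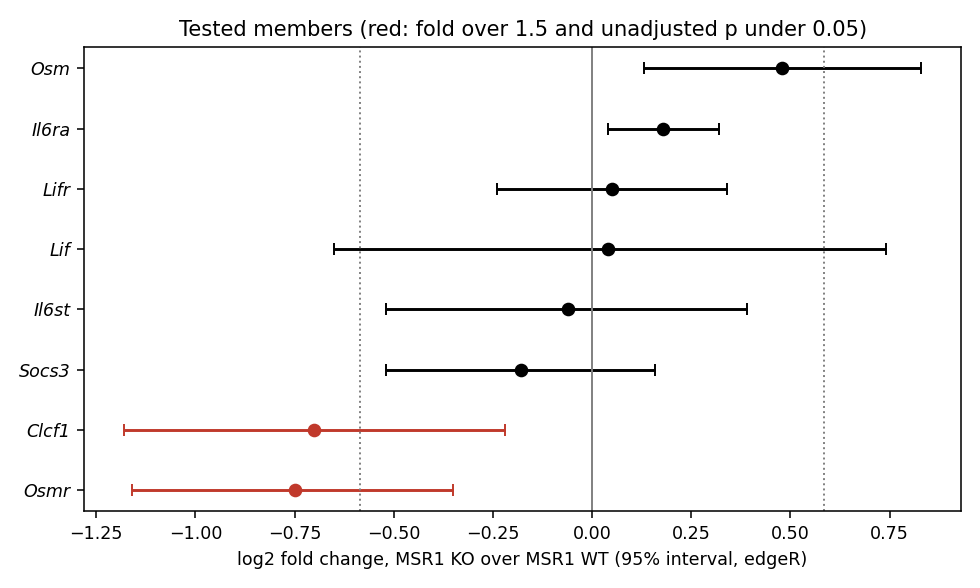
Log2 fold change of MSR1 KO over MSR1 WT macrophages for the 8 tested members on the horizontal axis, with 95% intervals from edgeR and dotted lines at a fold of 1.5. Osmr at -0.75 and Clcf1 at -0.70 have intervals below 0, Osm at 0.48 and Il6ra at 0.18 have intervals above 0, and the other 4 cross it.

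Levels of different genes were compared per kilobase of exon (CPM per kb of all annotated exons merged). Il6ra was the highest, at 35.4 ± 0.682 in MSR1 KO and 31.2 ± 0.601 in MSR1 WT libraries (SD, n = 3), followed by Il6st at 11.3 ± 3.66 and 11.9 ± 0.715. Osm, Socs3 and Lifr came next with means over all libraries of 4.48, 3.45 and 3.35 CPM per kb, and the ranges of neighbours in that order overlapped. Clcf1 (1.57), Osmr (1.2) and Lif (0.504 CPM per kb) followed, again with overlapping ranges. The IL-6 binding chain thus had a level above gp130 in every library, while transcripts of its ligand were at or near 0. The place of Osmr depended on the length used, since its merged exons span 12113 bases and its longest transcript 5491. With the longest transcript it stood at 2.64 CPM per kb, above Clcf1 at 1.68.

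**Figure D4:**
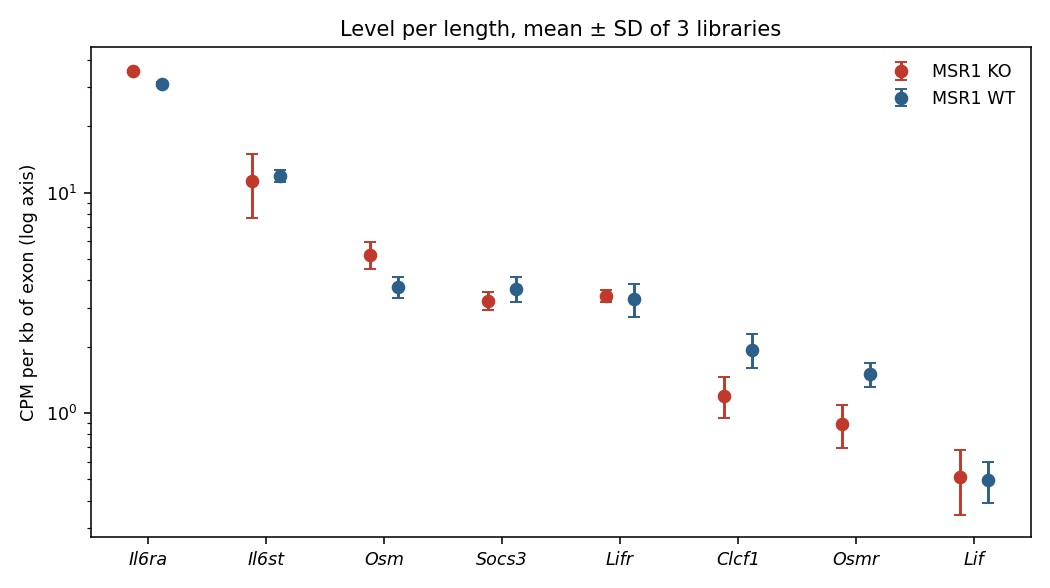
CPM per kb of merged exons on a log axis for the 8 tested members, as the mean ± SD of 3 MSR1 KO (red) and 3 MSR1 WT (blue) libraries. Il6ra and Il6st stand above the other members, and Lif is the lowest at 0.512 in MSR1 KO and 0.497 in MSR1 WT libraries.

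The other genes of the pathway were described by lists. Of 106 genes in 7 lists, members left out, 93 were tested, 10 rose and 1 fell at an adjusted p under 0.05, against 2.25% and 2.66% of all tested genes. The count of higher genes fell to 0 without MSR1 WT replicate 1 or without MSR1 WT replicate 2, to 1 without MSR1 KO replicate 1 and to 3 without MSR1 KO replicate 2. Of the named genes, Il12rb1 and Stat2 kept an adjusted p under 0.05 in 3 of the 6 fits that left out 1 library, Il12rb2 in 2, and Il11ra1, Jak3 and Socs1 in 1. Under the study's definition 9 were higher and 2 lower, with 8 to 10 higher when any 1 library was left out.

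Receptors related to gp130 went both ways. Of 10 listed, 6 were tested, 2 rose and 1 fell. Il11ra1, which encodes the IL-11 binding chain, fell from 27.9 ± 1.10 to 20.1 ± 0.423 CPM (SD, n = 3 each), from 1100, 1356 and 1181 to 704, 813 and 938 counts (log2 fold change -0.48, adjusted p = 0.025 by edgeR). Its value stayed between -0.51 and -0.45 when any 1 library was left out, but the adjusted p then reached 0.0877. Its ligand Il11 was nearly unread, as given above. Il12rb1, a chain of the IL-12 and IL-23 receptors, rose by 2.50 on the log2 scale (adjusted p = 0.023 by edgeR), from 268, 239 and 295 reads in MSR1 WT macrophages to 1005, 2407 and 796 reads in MSR1 KO macrophages, so its size rested in part on MSR1 KO replicate 2. Without that library it was 1.86. Il12rb2, its partner in the IL-12 receptor, rose by 1.07 (adjusted p = 0.026 by edgeR), though its exons share 40% of their bases with exons of Serbp1 on the opposite strand, so its value is uncertain. Csf3r, the G-CSF receptor gene, chosen after its value was seen, had a log2 fold change of 0.27 and an adjusted p of 0.0529 in edgeR.

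Of 9 other cytokines of the family, 3 were tested and 0 passed in edgeR, with 1 at an unadjusted p under 0.05 in edgeR. That was Il27, which encodes a subunit of IL-27 (109, 143 and 79 counts against 41, 71 and 57, log2 fold change 1.10, adjusted p = 0.12 by edgeR and adjusted p = 0.040 by DESeq2). Its groups did not overlap, and 10.1% of its exon bases also belong to Apobr.

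Among 16 tested JAK-STAT transducers, 3 rose and 0 fell. Among them, Stat2, which encodes a transducer of interferon signals, rose by 1.27 on the log2 scale (9932, 11844 and 10474 counts against 3997, 4108 and 6155, adjusted p = 0.019 by edgeR), and the kinase gene Jak3 rose by 0.41 (adjusted p = 0.030 by edgeR). Stat3, which encodes the main transducer of gp130, had 203 CPM in MSR1 KO and 175 CPM in MSR1 WT libraries with overlapping groups (log2 fold change 0.21, adjusted p = 0.31 by edgeR, chosen after its value was seen). Among 16 inhibitors, Socs1, which acts chiefly on interferon receptors, rose by 1.36 (189, 211 and 205 counts against 88, 53 and 107, adjusted p = 0.045 by edgeR), and 0 fell. Socs1 and Socs3 thus had log2 fold changes of 1.36 and -0.18, with 95% intervals from 0.66 to 2.06 and from -0.52 to 0.16.

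Interferon-response genes moved with Stat2 and Socs1. Of 10 listed, 7 rose and 0 fell, with a median log2 fold change of 1.30. Leaving out 1 library gave 1 higher call without replicate 1 of either group, 2 when MSR1 KO replicate 2 was dropped, 3 when MSR1 KO replicate 3 or MSR1 WT replicate 2 was, and 10 when MSR1 WT replicate 3 was. For all 10, every MSR1 KO library was above every MSR1 WT library, against 12.1% of all tested genes, and their summed level was 1880 to 2070 CPM in MSR1 KO against 598 to 1140 CPM in MSR1 WT libraries. Their part in the levels of Stat2 and Socs1 was not tested.

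Of 36 tested genes in a list of STAT3-type targets, which also holds the members Osmr and Socs3, 3 rose and 0 fell, and the median log2 fold change was 0.09. Those that rose were Mcl1, an inhibitor of apoptosis (0.39, adjusted p = 0.026 by edgeR), Il4ra, the IL-4 receptor gene (0.35, adjusted p = 0.030 by edgeR), and Zfp36, whose product destabilizes cytokine messenger RNAs (0.41, adjusted p = 0.034 by edgeR). None of these reached a fold of 1.5. Zfp36 was also the 1 gene of 12 tested regulators of Il6 messenger RNA that rose, and 0 of these fell. Of 7 genes tied to shedding of the IL-6 receptor, Timp3, an inhibitor of metalloproteinases, rose by 0.59 (adjusted p = 0.026 by edgeR), with 21.3% of its exon bases also in exons of Syn3 on the opposite strand, and 0 fell. Each of these 4 calls was lost in at least 5 of the 6 fits that left out 1 library.

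**Figure D5:**
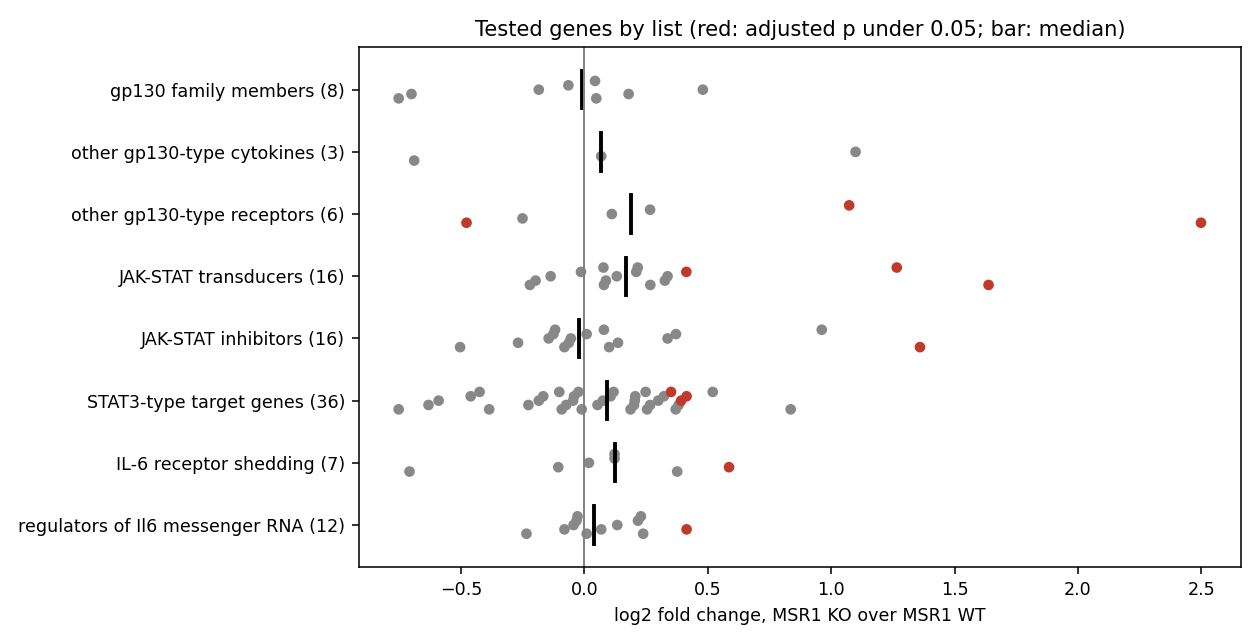
Log2 fold change of MSR1 KO over MSR1 WT macrophages for each tested gene of the family and of the 7 other lists, with the number tested in brackets, red points for an adjusted p under 0.05 in edgeR and a bar at each median. The red points are Il12rb1 at 2.50, Socs1 at 1.36 and others to the right of 0, with Il11ra1 at -0.48 to the left, and no member is red.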

How the data were processed

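Macrophage mRNA was sequenced by Illumina from VAHTS mRNA-seq libraries in 3 MSR1 KO and 3 MSR1 WT samples, grouped by their labels. The authors deposited raw counts for each gene in each library. Beside them stand deposited signal values (counts scaled by the authors with a size factor), a log2 fold change from the authors, and p-values from the authors with and without adjustment. Of the deposited columns, the raw counts alone were used. The paper's methods name TopHat and FPKM values, whereas the submitters' processing notes name fastp 0.17.1, HISAT2 2.1.0, DESeq2 1.18.1 and R 3.4.3. How reads were counted, with which strand setting and on which build is not given in the sources used here. Of 52550 identifiers, 49909 had the same start and end in GENCODE M21, so positions are given on GRCm38.

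Counts (36143518 to 47417448 per library) passed through filterByExpr and TMM scaling, and edgeR 4.0.16 (R 4.3.3) tested 16402 genes by its quasi-likelihood test (glmQLFit, glmQLFTest). The standard error is the absolute log2 value divided by sqrt(F), and the Poisson intervals hold counting error alone. CPM use TMM-scaled library sizes. The fit was tested on simulated data. The members and the lists, written from general knowledge, were chosen with earlier results of these data known. Named genes were the members, Msr1, and of each list up to 6 with an adjusted p under 0.05 or otherwise the 2 with the smallest p. Some genes that this rule names are not reported here. The rule also named genes with a pattern like that of a member that passed, and none did. Alternatives were DESeq2 1.42.0, its size factors, library size alone, other filters, the replicate number as a block, other lengths and each library left out.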

Additional observations from a re-analysis of the deposited data

How the results depend on the processing

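All alternatives kept the sign of the log2 fold changes of Osmr (-0.92 to -0.60), Clcf1 (-0.84 to -0.54), Osm (0.39 to 0.59), Il6ra (0.15 to 0.20) and Socs3 (-0.29 to -0.11), and the call of Msr1 (-2.16 to -1.93). The sign turned for Il6st without MSR1 KO replicate 2 (0.005) or 3 (0.12), with -0.34 without MSR1 KO replicate 1, for Lif without MSR1 KO replicate 2 (-0.26) or MSR1 WT replicate 3 (-0.10), and for Lifr without MSR1 WT replicate 1 (-0.03) or 2 (-0.01), none of which was called in any fit. Members with an adjusted p under 0.05 were 0 in the edgeR test, 2 with DESeq2's Wald test, 1 with at least 10 counts in every library, 1 with library size alone and 0 to 1 when 1 library was left out. Members meeting the study's definition were 2, and 1 to 3 when 1 library was left out. Of the 7 pathway lists, 10 genes were higher and 1 lower at an adjusted p under 0.05, against 20 and 4 with DESeq2, 1 and 0 with the replicate block, and 0 to 9 and 0 to 1 when 1 library was left out, and 1 to 3 were lower under the study's definition. In a comparison added after the data had been seen, the 5 lower stromal markers became 7 with DESeq2 and 0 with the replicate block, and the 7 higher interferon-response genes became 9 and 2. Over all genes the adjusted calls were 805 in edgeR, 1568 in DESeq2, 525 without a filter, 137 with the block and 71 to 779 with 1 library left out. With the replicate number as a block, 0 members passed, 2 met the study's definition and Osmr stood at -0.77 (adjusted p = 0.114 by edgeR). Same-numbered libraries did not deviate together (Pearson's r across genes of -0.03, 0.02 and 0). This cannot show whether they were prepared together. Changing the length moved the levels per kb of Osmr, Il6st, Socs3 and Lifr by more than their SD. The causes were not tested, and the fits that left 1 library out also had fewer libraries. Under each scaling the all-gene median stayed within 0.1 (log2) of its value.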
